A study of Mus musculus with 14 samples.

Results

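The plasma cells of this series are 4 of 14 Affymetrix arrays, each hybridised with biotin-labelled material made from total RNA of mouse splenic B cells sorted by flow cytometry. They were chosen by their titles and compared with the mean of the naive, germinal center and memory means, in which each of those 3 subsets weighs the same, and with each subset alone. All mice were male C57Bl/Ka. The plasma cells came 7 days after intraperitoneal NP-CGG, a hapten on chicken gamma globulin, in alum, from mice aged 5 to 9 weeks, and were gated as NP-binding, syndecan-1 positive, lambda light chain positive, low for B220 and IgM, and negative for PNA. The dose was 100 µg wherever the labels give one, and they give none for plasma replicate 1. Naive cells (3 arrays) came from unimmunized mice aged 4 to 8 weeks and were positive for B220, CD23, IgD and lambda with low IgM. Germinal center cells (3 arrays) came at day 14 from mice aged 6 to 10 weeks and bound NP and PNA with low CD38. Memory cells (4 arrays) came 10 to 12 weeks after immunization from mice aged 14 to 18 weeks and bound NP with high CD38 and no IgM, IgD or PNA. Every gate excluded CD11b, Ter119, Gr-1, CD3, CD4, CD8 and CD5. Subset, age and time after immunization moved together and cannot be told apart.

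Plasma cells are the end stage of the B cell lineage and release antibody in bulk. Their fate is set by the repressor Blimp-1 (gene Prdm1) together with Irf4 and Xbp1, while Pax5, Bach2 and Bcl6 hold B cells in earlier stages and oppose it. Cells taken from the spleen a week after antigen include plasmablasts, which secrete antibody and still divide.

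The expression values were linear intensities, with 18193 genes represented by their brightest probe set. All 10 plasma cell markers passed against each other subset, and in plasma cells their summed intensity was 31022 to 42184 per array against 3645 to 6202 in germinal center arrays, the highest of the other subsets. Of these Sdc1 encodes the syndecan-1 used for sorting, so its pass was set by the gate. The markers were chosen with earlier results of these data known, so the passes of the others are a description and no independent check. A large part of the plasma sum is Xbp1 and Jchain, whose readings are given below. Tnfrsf17 lost its call when values under 16 were set to 16. The 4 plasma arrays correlated with each other at a mean of 0.965 to 0.972 over 6116 bright genes (mean log2 of at least 6), and at most at 0.708 with an array of another subset. Their median SD over bright genes was 0.262 on the log2 scale, against 0.252 in naive, 0.408 in germinal center and 0.281 in memory arrays. Between 53.3% and 63.6% of genes lay above background on the plasma arrays, where background is the brightest of 27 bacterial control probe sets without spiked RNA. The 3' to middle signal ratio of beta-actin, which rises as RNA or its labelled copy gets shorter, was 5.47 to 6.91 in plasma arrays, 6.11 to 17.6 in germinal center arrays and 4.15 to 5.33 in the other arrays. The same ratio of Gapdh ordered the subsets otherwise, with 5.45 to 8.41 in plasma and 8.23 to 10.87 in germinal center arrays. It was 9.44 to 11.99 in naive and 11.03 to 13.02 in memory arrays. The 18 spiked hybridization controls had a mean log2 of 9.23 to 10.4 on plasma arrays and 10.1 to 11.7 on the others. Scaling each array to these controls, a choice made after the data were seen, would raise the median plasma difference over all genes from 0.03 to 1.14. "Higher" and "lower" below therefore mean relative to the deposited normalization. The labels do not say whether replicates were separate mice, so p-values measure only how these samples spread, and that spread may be technical. Their precision is limited by how few arrays there are.

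A gene was taken to set plasma cells apart when it passed in each of the 3 comparisons at an adjusted p under 0.05 (limma, Benjamini-Hochberg over all genes) with a difference of at least 1 on the log2 scale, that is at least 2-fold. Below, a difference written with ± is plasma minus the named subset in log2 units with its standard error, and the named subset is the one nearest to plasma cells (n = 4 plasma, 3 naive, 3 germinal center and 4 memory arrays), with the adjusted p of that comparison. Where the dimmer side lay above background on no array, the difference is a bound, written "at least", with background in place of the dimmer signal. The calls themselves used the readings as they stood, also those under background, and no bound. In this way 740 genes (4.07% of all) were higher in plasma cells than in each other subset and 767 genes (4.22%) were lower. For 104 of the higher and 45 of the lower genes some comparison was a bound. A gene can thus count although its bound lies under 2-fold, as Tnfrsf17 does. With values under 16 set to 16, 686 genes were higher and 697 lower than each subset. Against the mean of the other subsets alone, 3022 genes (16.6%) were higher and 3036 (16.7%) lower. Counts of list members given below stand beside these shares of all genes. With arrays scaled to the spiked controls 4359 genes were higher and 208 lower than each subset, and 95.9% of the calls against the mean were higher in place of 49.9%. With the mean of all probe sets of a gene, 583 were higher and 447 lower. Of the genes set apart, 461 of the higher and 546 of the lower had more than 1 probe set, and all their probe sets pointed the same way for 278 and 258. The 4 plasma arrays lay above all 10 others for 720 of the 740 higher genes (7.11% of all genes do so) and below them for 712 of the 767 lower genes (6.77% of all genes). Nearest to the limit stood Mocs2 (1.00) inside and Ngly1 (0.9999) outside it among higher genes, and Gypc (-1.002) inside and Ctrl (-0.997) outside it among lower genes. Gypc lost its call without any 1 of naive array 1, germinal center array 1, germinal center array 3, plasma array 1, plasma array 3 and plasma array 4 (-1.05 to -0.69, largest adjusted p from 0.0511 to 0.189).

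Of the 740 higher genes, naive cells were nearest for 311 (42.0%), germinal center cells for 293 (39.6%) and memory cells for 136 (18.4%). Of the 767 lower genes, germinal center cells were nearest for 466 (60.8%), memory cells for 179 (23.3%) and naive cells for 122 (15.9%). A further 2282 higher and 2269 lower genes were called against the mean but did not set plasma cells apart. Of these, 478 of the higher and 638 of the lower met the limits against naive and memory cells and missed them only against germinal center cells.

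Genes of protein secretion are what plasma cells are known for, and 125 of 170 measured ones (73.5%) were higher than in each other subset, with 0 lower. They are 125 of the 740 higher genes, so 615 lay outside that list. The list was not exhaustive: Mzb1, Calu, Lrrc59 and Wfs1, endoplasmic reticulum proteins named here after their values were seen, were among the 615. Of 7 immunoglobulin genes among the 740, Igha, which encodes the constant region of IgA, read 21118, 16245, 16796 and 20252 on the plasma arrays and 14.4 to 386 on the 10 others. Jchain, which joins secreted IgM and IgA, read 14630, 10767, 13195 and 13439, against 8.67 to 14.9 in naive, 28.5 to 489 in memory and 1419 to 2027 in germinal center cells (2.94 ± 0.68 from germinal center cells, adjusted p = 0.00535).

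Outside secretion and immunoglobulin genes the leading higher gene was Cd28, a costimulatory receptor best known from T cells. It read 777, 711, 786 and 963 on the plasma arrays and 6.69 to 10.6 elsewhere, always under background, so plasma cells stood at least 56.9-fold above germinal center cells, adjusted p = 1.01e-11. Filip1, a filamin-interacting protein, read 690.4, 738, 526 and 693 against 8.83 to 13.2 (5.99 ± 0.16 from naive cells, adjusted p = 5.07e-12, these above background on 1 of 3 arrays), with 1 of its 2 probe sets in that direction against each subset. Of the paraoxonase Pon3 the values were 1433, 801, 990.5 and 1593 against 7.52 to 24.3 (5.71 ± 0.26 from germinal center cells, adjusted p = 1.35e-09). These 3 genes did not overlap with any other array, and neither did the other 12 leading genes, because the naming rule asked for that. The membrane protein gene Fndc3b read 1640.0, 1699, 2007 and 1637 (5.57 ± 0.21 from naive cells, adjusted p = 1.57e-10). Gpr160, an orphan receptor, read 347, 378, 386 and 403 (at least 26.7-fold above germinal center cells, adjusted p = 1.44e-11). Mamdc2 read 231, 265, 283 and 153 (at least 16-fold above germinal center cells, adjusted p = 3.51e-10), and Oosp1 438, 239, 294 and 415 (5.10 ± 0.21 from memory cells, adjusted p = 2.81e-10, these above background on 1 of 4 arrays).

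**Figure D1:**
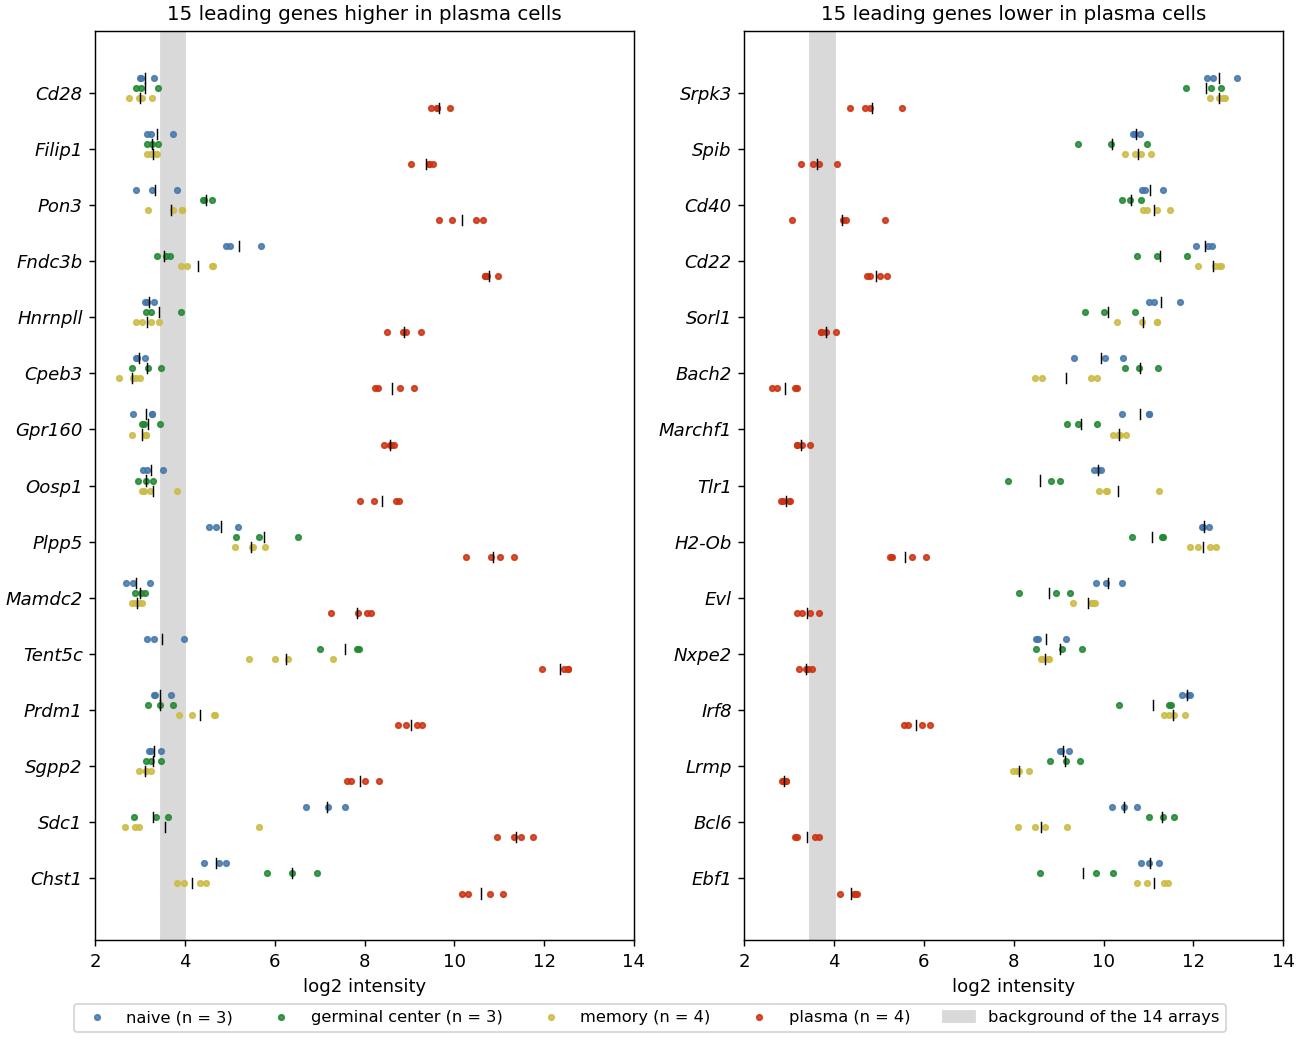
Log2 intensity on every array of the 15 leading genes higher (left) and lower (right) in plasma cells, outside secretion and immunoglobulin genes. Points are arrays, black bars are subset means, and the grey band spans the background of the 14 arrays; levels compare within a gene, not between genes. Cd28 and Sgpp2 lie under the background of every other array, while Cd22 and H2-Ob stay above background in plasma cells.

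Other leading genes handle lipid and carbohydrate. Sgpp2, a phosphatase of sphingosine-1-phosphate, read 196, 207, 259 and 318 against 7.79 to 11.1 (at least 18.5-fold above naive cells, adjusted p = 8.21e-11). The lipid phosphatase Plpp5 read 2574, 1232, 1796 and 2082 against 23.2 to 91.5 (5.09 ± 0.31 from germinal center cells, adjusted p = 1.81e-08). Chst1, a sulfotransferase of carbohydrate chains, read 2172, 1149.9, 1264 and 1782, against 14 to 123 (4.21 ± 0.27 from germinal center cells, adjusted p = 4.14e-08). Cpeb3, which binds messenger RNA and controls its poly(A) tail, read 317, 443, 548 and 301 against 5.81 to 11 (at least 27.6-fold above germinal center cells, adjusted p = 2.2e-10).

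Of 21 measured regulators of plasma cells 8 were higher than in each subset and 1 lower. Bhlha15, the factor Mist1 that expands secretory capacity, read 1029, 1011, 1109 and 1872, with the high value on array 4, against 10.5 to 22.3 (6.14 ± 0.23 from germinal center cells, adjusted p = 2.01e-10). Prdm1 read 575, 486, 617 and 426 and was nearest in memory cells at 14.6 to 25.4 (4.69 ± 0.20 from memory cells, adjusted p = 2.89e-10). Creb3l2, a membrane-bound factor of the unfolded protein response, read 2153, 1096, 1752 and 2245 against 11.8 to 84.6 (4.87 ± 0.30 from naive cells, adjusted p = 1.73e-08). The groups did not overlap for any of these, which held for 720 of the 740 higher genes. Xbp1 read 14084, 10557, 13394 and 13477 against 1152 to 3527 (2.56 ± 0.25 from memory cells, adjusted p = 1.85e-06). Irf4 read 3632, 2838, 4112 and 2998 against 602 to 887 in naive, 479 to 705 in memory and 45.3 to 133 in germinal center cells (2.19 ± 0.31 from naive cells, adjusted p = 6.98e-05). Ikzf3 (Aiolos), which the list counts as a plasma cell regulator, went the other way, with 406, 371, 454 and 478 against 1235 to 2188 (-1.63 ± 0.12 from naive cells, adjusted p = 1.43e-07, but -0.08 and no call when scaled to the spiked controls).

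Genes that process the antibody message were mixed, with 3 of 33 measured (9.09%, against 4.07% of all genes) higher and 4 (12.1%, against 4.22%) lower than in each subset. Hnrnpll, which directs alternative splicing of Ptprc, read 463, 612, 482 and 362 against 7.54 to 14.9 (5.46 ± 0.21 from germinal center cells, adjusted p = 2.06e-10, these above background on 1 of 3 arrays). Tent5c, a poly(A) polymerase, read 5933, 3950.3, 5886 and 5563 against 8.92 to 15.8 in naive, 42.7 to 157 in memory and 128 to 233 in germinal center cells (4.80 ± 0.37 from germinal center cells, adjusted p = 1.92e-07). Ell2, an elongation factor that favours the secreted form of the heavy chain, read 2946, 1860.5, 2451 and 1994 against 165 to 733 (2.31 ± 0.27 from germinal center cells, adjusted p = 1.27e-05), with 1 of its 2 probe sets in that direction against each subset. Eaf2, its partner, was shared with germinal center cells: 5696, 4647, 4896 and 5115 in plasma and 1848 to 3830.2 in germinal center cells (0.93 ± 0.34, adjusted p = 0.0646), against 12.2 to 29.8 in naive cells. The lower genes included Zfp36l1, which marks messages for decay, with 847, 606, 1021 and 732 against 1805 to 5133 (-1.48 ± 0.20 from germinal center cells, adjusted p = 5e-05), and Cdk9, the kinase of transcription elongation, with 41.4, 31.6, 43.1 and 31.8 against 89.4 to 159.8 (-1.43 ± 0.22 from germinal center cells, adjusted p = 0.000195). Both lost that call when scaled to the spiked controls.

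Transcription factors of the mature B cell were the counterpart: 13 of 33 measured were lower than in each subset and 1 higher, and 22 were lower than the mean. Spib, an Ets factor, read 16.8, 9.54, 12.6 and 11.5 against 693 to 2131 (-6.56 ± 0.28 from germinal center cells, adjusted p = 7.06e-10, plasma cells above background on 2 of 4 arrays). Bach2 read 8.75, 6.66, 9 and 6.16, under background on all 4 arrays, against 357 to 932 in memory and 1418 to 2369.5 in germinal center cells (at least 42-fold below memory cells, adjusted p = 2.15e-09). Bcl6 read 8.69, 11.9, 9.03 and 12.7 against 274 to 583 in memory, 1174 to 1709 in naive and 2081 to 3061 in germinal center cells (at least 28.5-fold below memory cells, adjusted p = 2.9e-10). Both repressors thus lay under background on the plasma arrays and were brightest in germinal center cells. Irf8, a partner of Spib, read 46.8, 70.3, 61.7 and 50 against 1309 to 3899.7 (-5.28 ± 0.24 from germinal center cells, adjusted p = 1.22e-09). Ebf1, which specifies the B lineage, read 21.7, 17.5, 22.6 and 22 against 382 to 2769 (-5.16 ± 0.30 from germinal center cells, adjusted p = 1.35e-08). Bcl11a, a zinc finger repressor, read 36, 35.3, 28.6 and 35.5 against 429 to 1788 (-4.48 ± 0.24 from germinal center cells, adjusted p = 5.3e-09). These 3 stayed above background on all 4 plasma arrays. Lmo2, a nuclear adaptor named after its values were seen, read 47.3, 55.7, 84.3 and 51.1 against 1199 to 5888 (-4.91 ± 0.22 from germinal center cells, adjusted p = 9.96e-10). Gfi1, a repressor, was the 1 higher member, at 51.4, 58.2, 66.8 and 48.9 against 6.04 to 11 (at least 4.31-fold above naive cells, adjusted p = 8.46e-09).

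Pax5, the factor of B cell identity, was dim throughout. Its brightest probe set read 18.6, 14.4, 16.1 and 18.5 in plasma cells and 19.3 to 58.2 elsewhere, close to background, with 1 of its 2 probe sets in that direction against each subset. Against the mean it was lower (-0.97 ± 0.18, adjusted p = 0.000507), short of the 2-fold limit against naive cells (-0.77 ± 0.23), and with arrays scaled to the spiked controls the sign turned (0.13, adjusted p = 0.704).

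Promoters of these genes could be read for 14452 of the 18193 genes (RefSeq, GRCm38.p6, 250 bases before to 50 after each start). Motif letters were searched on both strands, with overlaps allowed, and a match describes letters and shows no binding. The endoplasmic reticulum stress element, CCAAT and CCACG with 9 bases of any kind between them, stood in 20 promoters in all (0.138%). Of 103 secretion genes set apart higher 9 held it (8.74%), against 0 of 480 higher genes outside secretion and 0 of 610 lower genes. Its letters in the promoter of Hspa5, the chaperone BiP (12800, 11807, 13461 and 11665 against 814 to 3297 on the arrays; 1.99 ± 0.31 from naive cells, adjusted p = 0.000168), are in capitals below, at chr2:34772010-34772069.
Hspa5: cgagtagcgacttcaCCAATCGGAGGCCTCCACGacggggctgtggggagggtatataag
The shorter TGACGTG, a site type bound by Xbp1 and Atf6, stood in 2.84% of all promoters, in 11 of 103 secretion genes (10.7%), in 26 of 480 higher genes outside secretion (5.42%) and in 24 of 610 lower genes (3.93%). Of the 26, these 3 are shown because the genes are described here: Sgpp2 at chr1:78310186-78310245, Hk2 at chr6:82774475-82774534 on the minus strand and Isg20, with 2 matches, at chr7:78913705-78913764. The capitals mark TGACGTG or its reverse complement.
Sgpp2: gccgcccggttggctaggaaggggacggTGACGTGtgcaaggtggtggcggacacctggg
Hk2: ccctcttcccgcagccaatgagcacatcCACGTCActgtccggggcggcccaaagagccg
Isg20: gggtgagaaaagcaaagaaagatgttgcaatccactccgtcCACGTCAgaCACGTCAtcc

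Among the lower genes the letters of 2 other motifs were counted. The Ets and Irf composite, GGAA and GAAA with 2 bases of any kind between them, to which Spib with Irf8 or Irf4 binds, stood in 28 of 610 promoters (4.59%) against 2.88% of all, 2.29% of the 480 and 0.971% of the 103. The letters AGNGAAAG, a core bound by Blimp-1, stood in 79 of 610 (12.95%) against 9.54% of all, 9.58% of the 480 and 4.85% of the 103. Matches of that composite are shown for Bach2 (chr4:32417375-32417434) and Bcl6 (chr16:23981284-23981343, minus strand), and those with AGNGAAAG for Ebf1 (chr11:44620033-44620092) and Rfx5 (chr3:94953993-94954052), with the match or its reverse complement in capitals.
Bach2: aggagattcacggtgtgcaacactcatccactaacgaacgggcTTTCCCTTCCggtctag
Bcl6: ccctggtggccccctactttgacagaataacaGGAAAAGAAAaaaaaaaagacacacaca
Ebf1: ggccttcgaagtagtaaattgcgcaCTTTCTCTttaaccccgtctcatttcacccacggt
Rfx5: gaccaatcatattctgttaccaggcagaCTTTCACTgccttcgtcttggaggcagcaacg
Among the other letters searched, GAGGAAGT, an Ets type, stood in 3.47% of all promoters and 5.90% of the lower genes, and TGACGTCA in 2.92% and 2.13%.

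Of 30 measured surface receptors that plasma cells are known to keep or gain, 12 were higher than in each subset and 2 lower. Sdc1 (syndecan-1), on which the cells were sorted and which is therefore no finding, read 3436, 1965, 2575 and 2866, with 103 to 190.0 in naive cells and 1 memory array at 49.9. Il6st, the gp130 chain of the receptor for interleukin 6, read 612, 436, 526 and 548 against 20.3 to 104 (2.87 ± 0.29 from memory cells, adjusted p = 1.94e-06), with 2 of its 4 probe sets in that direction against each subset. Epcam, an adhesion molecule, read 169, 143, 146 and 133 against 24.5 to 50.5 (2.00 ± 0.20 from memory cells, adjusted p = 1.58e-06). Slamf7 read 1900.0, 1323, 1638 and 3085, with 584 to 1047 in germinal center cells as the nearest values (1.24 ± 0.27 from germinal center cells, adjusted p = 0.00343). None of these overlapped with another subset, which held for 720 of the 740 higher genes. The BAFF and APRIL receptors separated. Tnfrsf17 (BCMA) read 33.7, 17.2, 21.7 and 16.5 and lay under background on the other 10 arrays (at least 1.51-fold above germinal center cells, adjusted p = 0.000485), a call lost when values under 16 were set to 16 (0.42, largest adjusted p = 0.203). Tnfrsf13c (BAFF receptor) read 1332, 1380.1, 1428 and 1364 against 3240.0 to 4386 (-1.47 ± 0.12 from germinal center cells, adjusted p = 4.56e-07), with -0.01 and no call when scaled to the spiked controls. Tnfrsf13b (TACI) read 655, 783, 801 and 566, within the range of 544 to 999 in memory cells (0.06 ± 0.30, adjusted p = 0.9). Ifngr1, a chain of the interferon gamma receptor, was the other lower member, with 59.4, 48.6, 55.6 and 70.7 against 155 to 332 (-1.73 ± 0.16 from germinal center cells, adjusted p = 1.19e-06, and -0.70 without a call when scaled to the spiked controls).

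Of receptors for homing and adhesion 3 of 30 measured (10%, against 4.07% of all genes) were higher than in each subset. Another 6 (20%, against 4.22%) were lower. Cxcr5, which guides B cells into follicles, read 10.8, 16, 14.1 and 26, above background on 2 of 4 arrays, against 265 to 771 in germinal center and 1729 to 1823 in naive cells (-5.04 ± 0.33 from germinal center cells, adjusted p = 4.75e-08). S1pr3, a receptor for sphingosine-1-phosphate, read 9.2, 11, 10.4 and 11 against 139 to 221 in naive and 2006 to 4347 in memory cells (at least 13-fold below naive cells, adjusted p = 1.98e-08), with 1 of its 3 probe sets in that direction against each subset. The cannabinoid receptor Cnr2 read 5.88, 8.69, 7.46 and 8.27 against 29.8 to 1388 (at least 4.61-fold below germinal center cells, adjusted p = 9.19e-05). Icam1 read 75.4, 96.7, 76.9 and 115 against 323 to 728 (-2.03 ± 0.22 from naive cells, adjusted p = 5.5e-06, -0.48 without a call when scaled to the spiked controls). The integrin chain Itga6 read 19.1, 24.5, 19 and 24.1 against 62.5 to 146 (-1.91 ± 0.18 from memory cells, adjusted p = 7.93e-07). Of the higher members Selplg, the ligand of P-selectin, read 686, 922, 925 and 1294 against 12 to 299.7 (1.71 ± 0.31 from naive cells, adjusted p = 0.000632). The hyaluronan receptor Cd44 read 1781, 1270.0, 1315 and 1504 against 132 to 623 (1.41 ± 0.23 from memory cells, adjusted p = 0.000203). The integrin chain Itgb1 read 236, 207, 235 and 208 against 34.4 to 117 (1.81 ± 0.40 from germinal center cells, adjusted p = 0.00405). Itgb1 lost its call with the actin ratio as a covariate (1.20, largest adjusted p = 0.0884).

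**Figure D2:**
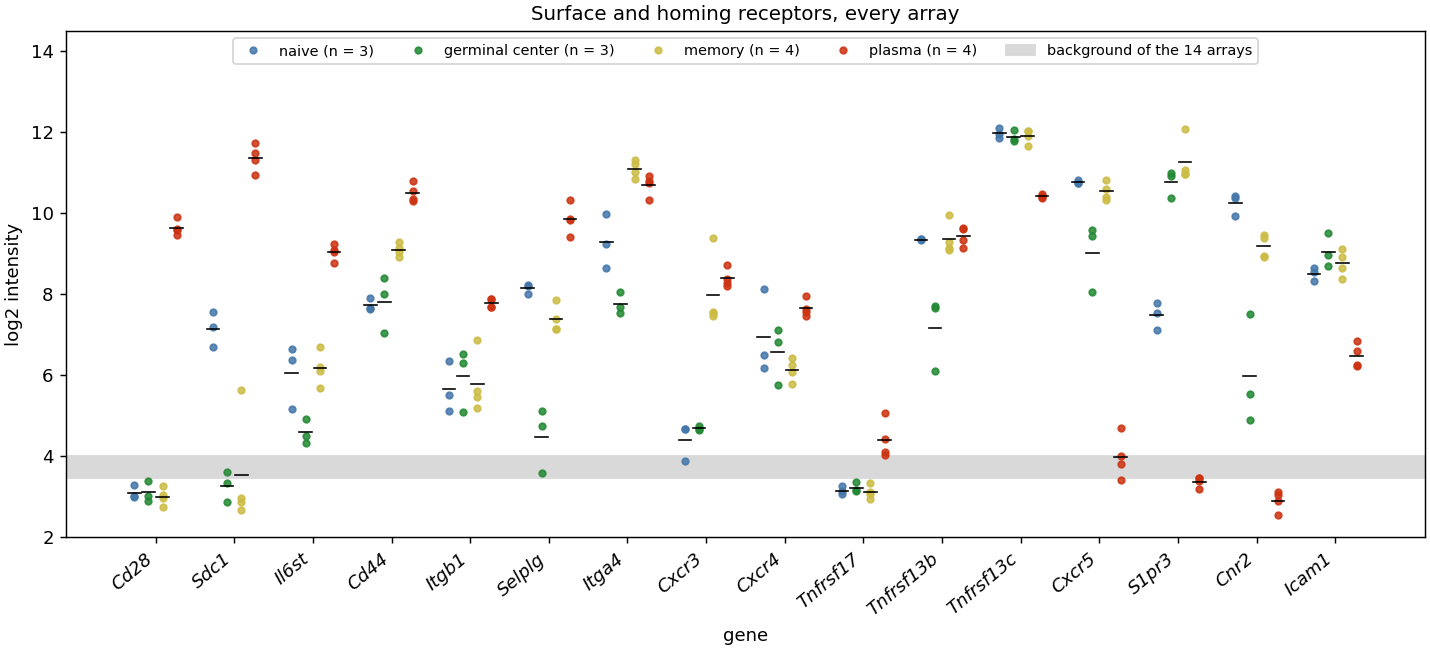
Log2 intensity of 16 surface and homing receptors on every array, with points as arrays, black bars as subset means and the background band in grey. Cxcr5, S1pr3 and Cnr2 fall to or near the band in plasma cells, Cd28 and Tnfrsf17 leave it only there, and Cxcr3 and Itga4 overlap with memory cells.

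Cxcr3, the receptor for interferon-induced chemokines, read 331, 314, 296 and 421 in plasma cells and 176 to 673 in memory cells (0.41 ± 0.35, adjusted p = 0.425), against 14.8 to 25.4 in naive and 25.3 to 26.7 in germinal center cells. The integrin chain Itga4, named after its values were seen, read 1776, 1286, 1725 and 1942 against 1838 to 2540.1 in memory cells (-0.40 ± 0.24, adjusted p = 0.238). Cxcr4, which draws plasma cells to bone marrow, was higher than the mean (1.11 ± 0.31, adjusted p = 0.0123) but read 191, 248, 201 and 176 against 72.8 to 280.0 in naive cells, with overlap. Gpr183, a receptor that places B cells outside the follicle and was named after its values were seen, stood between the subsets: 132, 132, 95.2 and 116 in plasma, 11.8 to 20.6 in germinal center, 861 to 901 in naive and 865 to 1423 in memory cells.

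In antigen receptor signalling 18 of 36 measured genes were lower than in each subset and 1 higher. With arrays scaled to the spiked controls 10 were lower and 2 higher, against 208 lower and 4359 higher of all 18193 genes. Cd22, an inhibitory lectin of B cells, read 32.3, 26.5, 27.8 and 36.4 against 1714 to 6311 (-6.33 ± 0.22 from germinal center cells, adjusted p = 1.03e-10). Cr2, the complement receptor CD21, read 49.9, 57.7, 41.6 and 46.8 against 1209 to 3981 (-4.81 ± 0.15 from germinal center cells, adjusted p = 3.12e-11). Cd72, another coreceptor, read 14.9, 15.9, 13.5 and 11.9 against 259 to 2012 (-4.46 ± 0.17 from germinal center cells, adjusted p = 2.2e-10, plasma cells above background on 2 of 4 arrays). The adaptor Pik3ap1 read 38.6, 53, 55.8 and 47.5 against 741 to 1419 (-4.09 ± 0.15 from memory cells, adjusted p = 8.77e-11). The phosphatase gene Ptpn6 read 28.5, 67.3, 44.6 and 28 against 289 to 1718 (-3.64 ± 0.35 from germinal center cells, adjusted p = 1.99e-06). The Src family kinase gene Blk read 32.5, 30.5, 33 and 27.4 against 211 to 1029.8 (-3.00 ± 0.18 from germinal center cells, adjusted p = 1.77e-08). So the lower genes named here included an inhibitory lectin, a complement receptor, an adaptor, a phosphatase and a Src family kinase. Ptpn6 and Blk were named after their values were seen. Kinases did not all go this way: Syk did not set plasma cells apart and Pik3cd was higher than each subset, as given below. None of the lower genes named so far in this list overlapped, which held for 712 of the 767 lower genes. The naming rule asked for it of the leading genes, Cd22 among them. Ms4a1 (CD20) remained measurable, with 1141, 514, 684 and 849.8 against 5350.1 to 10260 (-2.88 ± 0.21 from germinal center cells, adjusted p = 1.12e-07). The receptor's own signalling chain Cd79b read 2613, 1427, 1611 and 2539 and overlapped with 1310.2 to 3096 in germinal center cells (-0.19 ± 0.28, adjusted p = 0.708). Syk, named after its values were seen, read 1861, 1574, 1819.8 and 1854 against 1586 to 2823 (-0.14 ± 0.19, adjusted p = 0.695). Ptprc (CD45, whose B220 form was gated low) read 6046, 4479, 5227 and 4145 against 6771 to 13568, short of the limit against germinal center cells (-0.74 ± 0.17, adjusted p = 0.00483). With arrays scaled to the spiked controls the difference from the mean was 0.04 for Cd79b and 0.02 for Ptprc, with the sign turned and no call.

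The 1 higher member of that list was Pik3cd, the delta catalytic subunit of PI3-kinase. It read 248, 5673, 2668 and 595 against 74.6 to 240.5 (2.90 ± 0.74 from memory cells, adjusted p = 0.00694). Plasma arrays 2 and 3 were far above the others, with 3 of its 6 probe sets in that direction against each subset.

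In the list of MHC class II and costimulation 12 of 22 measured genes were lower than in each subset and 0 higher, and 18 were lower than the mean. With arrays scaled to the spiked controls 8 were lower and 1 higher, against 208 lower and 4359 higher of all 18193 genes. Cd40, the receptor for T cell help, read 8.39, 35.1, 19.2 and 18.2 against 1371 to 2843 (-6.45 ± 0.34 from germinal center cells, adjusted p = 5.13e-09, plasma cells above background on 3 of 4 arrays). H2-Ob, a chain of H2-O, which inhibits peptide loading, read 53.4, 39.2, 66.5 and 37.7 against 1584 to 5834 (-5.50 ± 0.22 from germinal center cells, adjusted p = 3.96e-10). H2-Oa, the other chain, read 40.4, 31.8, 28.5 and 29.2 against 195 to 793 (-3.04 ± 0.19 from germinal center cells, adjusted p = 2.88e-08). Marchf1, a ligase that removes class II and Cd86 from the surface, read 9.66, 11, 8.97 and 9 against 579 to 2068 (at least 52.5-fold below germinal center cells, adjusted p = 2.33e-11), with 2 of its 3 probe sets in that direction against each subset. Ciita, the coactivator of class II genes, read 12.2, 9.4, 9.95 and 10.2, under background, against 38.8 to 107 (at least 4.49-fold below germinal center cells, adjusted p = 8.49e-06). Its partner Rfx5 read 453, 641, 893 and 366 against 1292 to 2359 (-1.63 ± 0.28 from germinal center cells, adjusted p = 0.000429, -0.14 without a call when scaled to the spiked controls). The class II chains themselves kept more of their signal: H2-Aa read 4114, 2914, 2766 and 4588 against 11692 to 19613 (-1.92 ± 0.18 from germinal center cells, adjusted p = 1.22e-06). H2-Ab1 read 1596, 1699, 1546 and 1490.1, overlapping with 1385 to 2834 in germinal center cells (-0.39 ± 0.21, adjusted p = 0.223). Cd83, which stabilises class II and Cd86 on the surface, read 92.2, 123, 83.3 and 98.6 against 1487 to 5049 (-4.75 ± 0.27 from memory cells, adjusted p = 6.68e-09). Cd86, a ligand of Cd28, read 19.4, 16.1, 12.3 and 13.2 against 85.9 to 701 (-2.73 ± 0.19 from naive cells, adjusted p = 5.74e-08, plasma cells above background on 2 of 4 arrays).

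Class I processing went the other way, with 4 of 17 measured genes higher than in each subset and 0 lower. Erap1, which trims peptides in the endoplasmic reticulum, read 481, 374, 477 and 384 against 42.3 to 123 (2.04 ± 0.34 from naive cells, adjusted p = 0.00031), with 1 of its 2 probe sets in that direction against each subset. Tapbpl, a peptide editor, read 103, 94.8, 101 and 127 against 17.6 to 39.9 (1.43 ± 0.16 from naive cells, adjusted p = 5.97e-06). Psmb8, of the immunoproteasome, read 1060.2, 1052, 932 and 971 against 282 to 641 (1.33 ± 0.28 from germinal center cells, adjusted p = 0.00254). Psmb5, its counterpart in the standard proteasome, read 1046, 1152, 927 and 1073 against 131 to 831 (1.29 ± 0.32 from germinal center cells, adjusted p = 0.00865). Psmb8 lost its call with the mean of its probe sets (0.43, largest adjusted p = 0.12) and Psmb5 with the actin ratio as a covariate (0.99, largest adjusted p = 0.114). B2m, the shared light chain, was named after its values were seen and overlapped with memory cells, at 4448, 1982, 2353 and 2584 against 1744 to 2795 (0.22 ± 0.28, adjusted p = 0.611).

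Of 29 measured survival and death genes 0 were higher and 6 lower than in each subset, and 6 were higher and 12 lower than the mean. Traf1, an adaptor of TNF receptors, read 19.5, 20.4, 21 and 14.9 against 76.8 to 1007 (-2.48 ± 0.42 from naive cells, adjusted p = 0.000344). Traf5, another, read 24.6, 43.6, 52.6 and 20.7 against 114 to 435 (-2.39 ± 0.31 from germinal center cells, adjusted p = 3.34e-05). Bcl2 read 10.3, 16.2, 13.1 and 14, above background on 2 of 4 arrays, against 20.1 to 51.3 in germinal center, 400.1 to 819.5 in naive and 594 to 2410.3 in memory cells (-1.35 ± 0.43 from germinal center cells, adjusted p = 0.0327). Bcl2 lost its call without any 1 of germinal center array 1, germinal center array 2, plasma array 1, plasma array 3 and plasma array 4 (-1.38 to -1.05, largest adjusted p from 0.0569 to 0.143). It also lost the call with the replicate number as a block (-1.44), a floor of 16 (-1.07), array weights (-1.18), the actin ratio as a covariate (-1.12), the mean of its probe sets (-0.31) and arrays scaled to the spiked controls (-0.47), with largest adjusted p from 0.0538 to 0.32. Mcl1, on which plasma cells are known to depend, was bright everywhere, at 6323, 4443, 5254 and 6439 against 6435 to 10138, with overlap. It was lower than the mean (-0.66 ± 0.11, adjusted p = 0.000355), but -0.05 with the mean of its probe sets and 0.44 without a call when scaled to the spiked controls. Bcl2l1 (Bcl-xL), named after its values were seen, was higher than the mean (0.92 ± 0.15, adjusted p = 0.000211) and read 143, 219, 186 and 123 against 97.7 to 133 in germinal center cells.

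**Figure D3:**
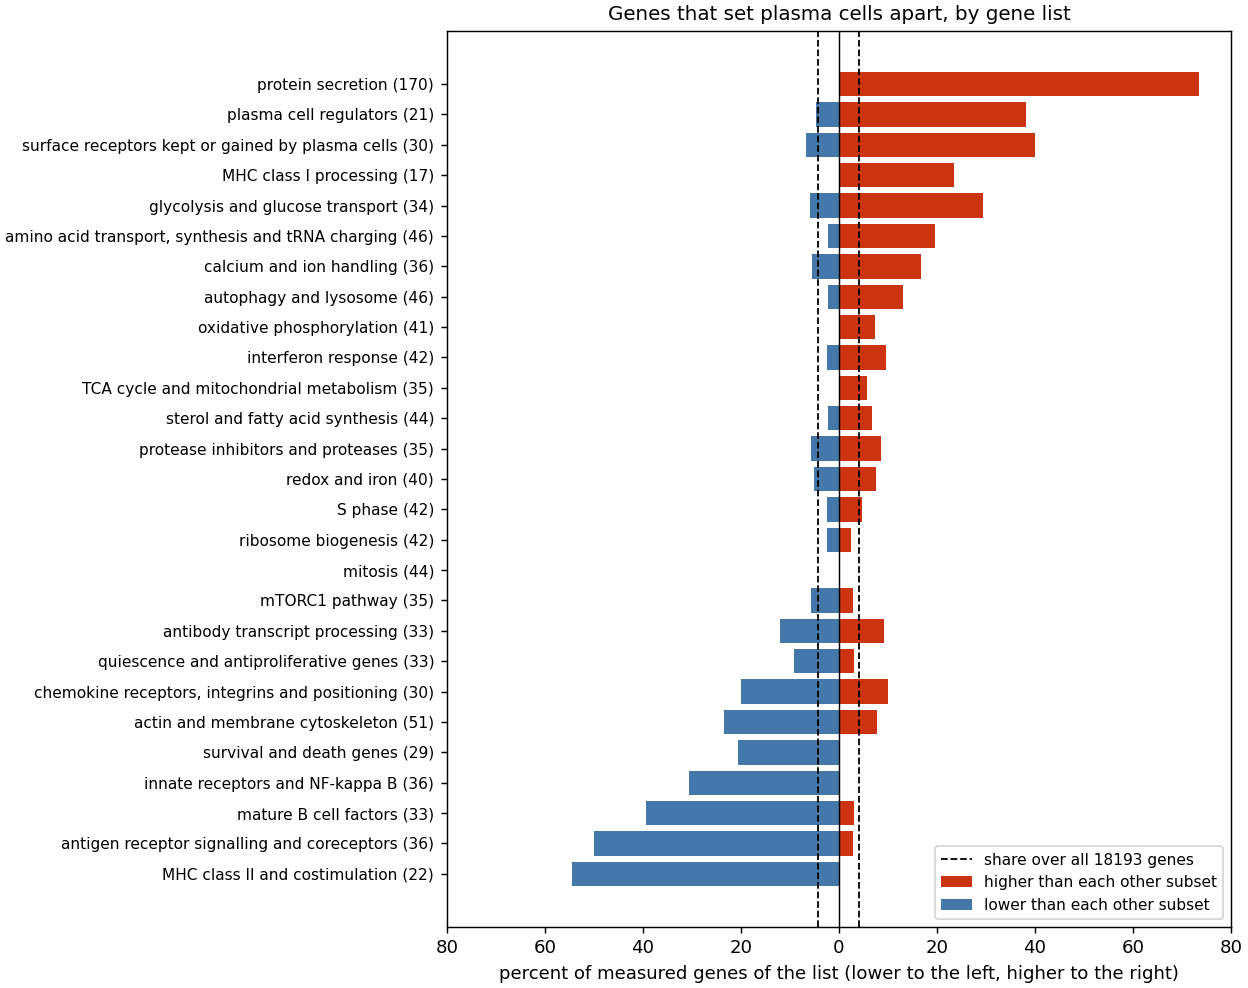
Percent of the measured genes of each list (number in brackets) that were higher (right) or lower (left) in plasma cells than in each other subset, with dashed lines at 4.07% and 4.22%, the shares over all 18193 genes. Protein secretion reaches 73.5% to the right, MHC class II 54.5% to the left, and mitosis has 0 on both sides. The list named glycolysis and glucose transport also holds genes of sugar nucleotide synthesis.

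In the list of glycolysis, glucose transport and sugar nucleotides 10 of 34 measured genes (29.4%, against 4.07% of all) were higher than in each subset and 2 lower. Gfpt1, which opens the hexosamine pathway, read 3130.1, 3058, 4250.1 and 3447 against 239.8 to 1346 (1.95 ± 0.38 from naive cells, adjusted p = 0.00105). Gnpnat1, the next enzyme, read 619.9, 416, 502 and 375 against 31.4 to 243 (1.38 ± 0.37 from naive cells, adjusted p = 0.0109). Pgm3, which follows it, read 445, 364, 339.7 and 413 against 18.3 to 129 (2.01 ± 0.33 from naive cells, adjusted p = 0.000307). Uap1, the last step to UDP-N-acetylglucosamine, did not set plasma cells apart (485, 385, 403 and 391 against 256 to 461 in germinal center cells; 0.19 ± 0.20, adjusted p = 0.594). Gne, the first enzyme of sialic acid synthesis, read 778, 547, 565 and 844 against 46.6 to 153 (2.20 ± 0.19 from naive cells, adjusted p = 4.07e-07). Nans, the synthase, read 1459, 1117, 1064 and 1273 against 96.9 to 254 (2.49 ± 0.16 from germinal center cells, adjusted p = 3.32e-08). Cmas, which activates sialic acid to its CMP form, read 917, 458, 688 and 649.6 against 81.6 to 183 (2.35 ± 0.29 from naive cells, adjusted p = 1.79e-05). Gfpt1, Gnpnat1 and Uap1 were named after their values were seen.

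Glucose handling itself split within the same list. Hk2, the hexokinase of growing cells, read 59.7, 89.5, 80.6 and 46.9 against 12.5 to 31.5 (1.38 ± 0.23 from germinal center cells, adjusted p = 0.000388). Pkm, pyruvate kinase, read 636, 711, 754 and 755 against 67.6 to 394 (1.29 ± 0.30 from germinal center cells, adjusted p = 0.00487), with 0.87 and a largest adjusted p = 0.0971 for Pkm once the actin ratio was a covariate. The glucose transporters stood lower: Slc2a1 read 262, 254, 254 and 281 against 332 to 1539, and Slc2a3 122, 145, 172 and 143 against 78.4 to 1039.9. Both were lower than the mean (-1.67 ± 0.19, adjusted p = 6.98e-06, and -1.61 ± 0.23, adjusted p = 5.61e-05) but missed the limit against germinal center cells, and neither was called when scaled to the spiked controls (-0.56 and -0.50). Ugdh, which makes UDP-glucuronate, was lower than each subset (-1.21 ± 0.25 from germinal center cells, adjusted p = 0.00254, -0.32 without a call under that scaling). Hk2, Pkm, Slc2a1 and Slc2a3 were named after their values were seen.

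**Figure D4:**
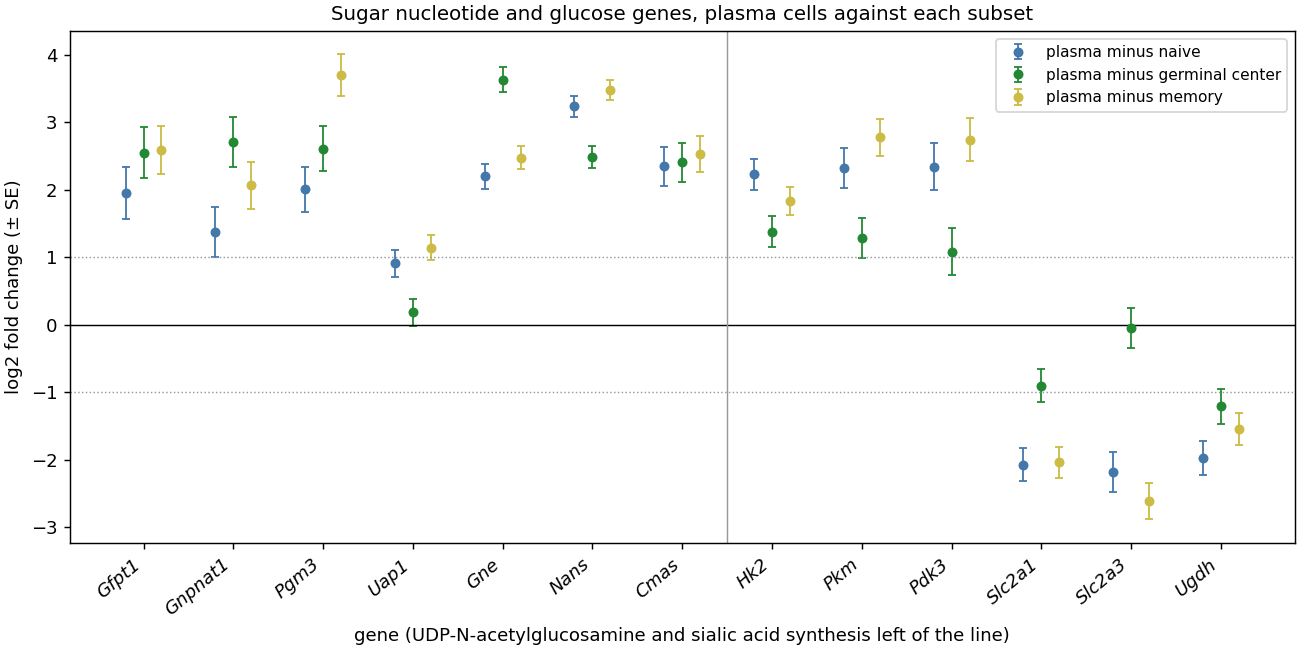
Log2 fold change, with its standard error, of plasma cells (n = 4) against naive (n = 3), germinal center (n = 3) and memory cells (n = 4) for 13 sugar genes, with dotted lines at the 2-fold limit. Left of the grey line Uap1 alone does not exceed the limit against each subset. The transporters Slc2a1 and Slc2a3 lie below 0 against naive and memory cells.

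Of 46 measured genes of amino acid transport, synthesis and transfer RNA charging, 33 were higher than the mean (71.7%, against 16.6% of all genes) with a median of 0.90, and 9 were higher (19.6%, against 4.07% of all genes) and 1 lower than each subset. The transporter Slc7a5 read 104, 156, 176 and 111 against 22.8 to 35 (2.07 ± 0.17 from germinal center cells, adjusted p = 3.58e-07). Its partner Slc3a2, named after its values were seen, read 700.4, 647, 599 and 796 against 109.6 to 440.4, short of the 2-fold limit against naive cells (0.82 ± 0.21, adjusted p = 0.00848). Got1, the cytosolic aspartate aminotransferase, read 223, 231, 245 and 251 against 23.3 to 94.8 (1.81 ± 0.30 from naive cells, adjusted p = 0.000289). Got2, the mitochondrial one, read 5097, 5106, 6159 and 5901 against 1022 to 1949 (1.77 ± 0.15 from germinal center cells, adjusted p = 6.78e-07). Asns, asparagine synthetase, and Psat1, an enzyme of serine synthesis, were named after their values were seen. Asns read 434, 442, 476 and 455 against 122 to 442 in germinal center cells and 14.1 to 26.8 in naive cells. Psat1 read 1617, 1744, 2002 and 1579 against 3059 to 3452 in germinal center cells (-0.91 ± 0.17, adjusted p = 0.00108). Glul, glutamine synthetase, was the lower member (21.1, 15.6, 20.4 and 25.6 against 28.8 to 488; -1.09 ± 0.31 from memory cells, adjusted p = 0.0136, plasma cells above background on 3 of 4 arrays), with -0.20 and no call when scaled to the spiked controls. In the mTORC1 list 1 of 35 measured genes was higher and 2 lower, a share near that of all genes. Of these the inhibitor Sesn3 read 29.2, 27.8, 33.2 and 18.7 against 276 to 575 (-3.69 ± 0.21 from naive cells, adjusted p = 8.87e-09). Tbc1d7, a subunit of the inhibitory TSC complex, read 48.3, 52.3, 48.9 and 56.5 against 10.5 to 21.6 (1.43 ± 0.17 from germinal center cells, adjusted p = 1.3e-05).

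In the mitochondrial and lipid lists many genes were higher than the mean and few were higher than each subset. Of 41 measured genes of oxidative phosphorylation 3 were higher than each subset (7.32%, against 4.07% of all genes) and 0 lower. Against the mean 22 were higher (53.7%, against 16.6% of all genes), with a median of 0.53. That median was 0.58 against naive, 0.03 against germinal center and 1.06 against memory cells, so these genes as a set did not differ from germinal center cells. Atp5g1, of the membrane ring of ATP synthase, read 225, 272, 216 and 319.9 against 38.5 to 75 (2.05 ± 0.20 from germinal center cells, adjusted p = 2.79e-06). Atp5b, its catalytic beta subunit, read 1872, 2238, 2292 and 2079 against 271 to 1013 (1.47 ± 0.28 from naive cells, adjusted p = 0.00103). Of 35 genes of the TCA cycle and mitochondrial metabolism 15 were higher than the mean (42.9%) and 2 higher than each subset, among them Idh2 (297, 241, 284 and 321 against 31.8 to 134; 1.39 ± 0.22 from germinal center cells, adjusted p = 0.000252), with 1 of its 2 probe sets in that direction against each subset and no call for their mean (0.49). Of 44 genes of sterol and fatty acid synthesis 19 were higher than the mean (43.2%), and 3 (6.82%) were higher and 1 (2.27%) lower than each subset. Their median was 0.35 against naive, 0.06 against germinal center and 0.61 against memory cells. For the TCA list these medians were 0.12, 0.14 and 0.37 in the same order, and the share higher than each subset was 5.71%. Ebp, a sterol isomerase, read 238, 249, 319 and 257 against 23.3 to 64.9 (2.26 ± 0.19 from naive cells, adjusted p = 3.13e-07). Scd1, the desaturase that makes oleate, was the lower one, with 77.8, 63.5, 85.8 and 65 against 1121 to 1718 in germinal center, 4143 to 4981 in naive and 3521 to 5149.7 in memory cells (-4.23 ± 0.17 from germinal center cells, adjusted p = 4.14e-10), with both probe sets in that direction.

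Autophagy and lysosome genes were higher in 6 of 46 measured and lower in 1. Ctsb, the protease cathepsin B, read 704, 667, 780.4 and 889.5 against 65.6 to 162 (2.43 ± 0.15 from memory cells, adjusted p = 1.82e-08). Glb1, a lysosomal galactosidase, read 248, 205, 271 and 316 against 26.2 to 79.8 (1.76 ± 0.17 from naive cells, adjusted p = 2.04e-06). Wipi1, which acts at the forming autophagosome, read 161, 46.7, 62.9 and 125 against 12.9 to 18.1 (2.45 ± 0.32 from naive cells, adjusted p = 3.68e-05). Of 40 redox and iron genes 3 (7.5%, against 4.07% of all genes) were higher and 2 (5%, against 4.22%) lower. The glutaredoxin Glrx read 129, 129.9, 121 and 136 against 21.3 to 35.6 (2.02 ± 0.17 from naive cells, adjusted p = 5.13e-07).

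Of 42 measured interferon response genes 4 (9.52%) were higher than each subset and 1 (2.38%) lower, against 4.07% and 4.22% of all genes. Against the mean 8 (19.05%, near the 16.6% of all genes) were higher and 14 (33.3%, against 16.7%) lower. Isg20, an exonuclease, read 4265, 1752, 2014 and 3267 against 117 to 288 (3.58 ± 0.30 from germinal center cells, adjusted p = 5.66e-07). Ifitm3, which blocks virus entry, read 129.6, 70.2, 106 and 48.7 and lay under background on the other 10 arrays (at least 6.38-fold above naive cells, adjusted p = 3.18e-07). The nucleic acid sensor Zbp1 read 178, 77.5, 60.4 and 175 against 15.8 to 31.5 (1.94 ± 0.32 from naive cells, adjusted p = 0.000291). Bst2 (tetherin) read 51.6, 63.7, 67.5 and 56.8 against 11.9 to 29.5 (1.76 ± 0.24 from germinal center cells, adjusted p = 5.6e-05, these above background on 2 of 3 arrays). Irf7, the master factor of the response and named after its values were seen, read 23.7, 25.5, 23 and 31.2 against 22.4 to 39 and was not called against the mean (-0.11 ± 0.12, adjusted p = 0.534). In the list of innate receptors and NF-kappa B 11 of 36 measured genes (30.6%, against 4.22% of all) were lower than each subset and 0 higher. When scaled to the spiked controls 6 were lower and 6 higher, against 208 lower and 4359 higher of all 18193 genes. Tlr1 read 7.99, 7.07, 7.24 and 8.05, under background, against 234 to 2400.2 (at least 27.8-fold below germinal center cells, adjusted p = 5.14e-09). Ly86, the partner of the receptor RP105, read 282, 240.4, 199.9 and 238 against 1132 to 3479 (-2.56 ± 0.17 from germinal center cells, adjusted p = 4.15e-08). Nfkbie, an inhibitor of NF-kappa B, read 160.4, 140.0, 119 and 120.5 against 869.9 to 3008 (-3.29 ± 0.28 from germinal center cells, adjusted p = 5.25e-07). Tnfaip3, the inhibitor A20, read 124, 239, 233 and 109 against 675 to 1420.4 (-2.48 ± 0.28 from germinal center cells, adjusted p = 1.01e-05). Rel, a subunit of NF-kappa B itself, was lower too (17.9, 15.4, 16.3 and 11.6 against 46.6 to 163; -2.31 ± 0.29 from memory cells, adjusted p = 1.69e-05, plasma cells above background on 2 of 4 arrays).

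Mitosis genes were high in plasma and in germinal center cells. Of 44 mitosis genes 40 were higher than the mean, with a median of 2.57, but 0 of the 44 were higher and 0 lower than each subset. Mki67 read 5748, 5569, 6522 and 5467 against 5180.3 to 8589 in germinal center cells (-0.24 ± 0.34, adjusted p = 0.702), 197 to 282 in memory and 9.21 to 32.9 in naive cells. Of 42 S phase genes 34 were higher than the mean (80.95%, against 16.6% of all genes). Their median was 1.62 against naive, -0.37 against germinal center and 1.96 against memory cells. Only 2 (4.76%, near the 4.07% of all genes) were higher and 1 (2.38%, under the 4.22%) lower than each subset. Ccne1, cyclin E1, read 1243, 1124, 1231 and 1146 against 507 to 641 in germinal center cells (1.03 ± 0.21 from germinal center cells, adjusted p = 0.00201). The subunits of DNA polymerase delta went opposite ways. Its catalytic subunit Pold1 read 194, 381, 283 and 363 against 1926 to 4978 (-3.00 ± 0.23 from memory cells, adjusted p = 1.1e-07) and its accessory subunit Pold2 168, 216, 167 and 219 against 25.7 to 109.5 (1.54 ± 0.28 from germinal center cells, adjusted p = 0.000685). Pold1, with both probe sets in that direction, was brighter in resting naive cells (2598 to 3198) than in plasma cells.

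Among quiescence and antiproliferative genes 1 of 33 measured (3.03%, against 4.07% of all genes) was higher and 3 (9.09%, against 4.22%) lower than each subset. Btg1, an antiproliferative factor, read 104, 87.4, 154 and 72.2 against 1652 to 6919 (-4.75 ± 0.28 from germinal center cells, adjusted p = 1.65e-08), with all 3 probe sets in that direction. The higher one was Ccnd2, cyclin D2, which the list holds as the D cyclin of resting B cells: 3342, 4389.7, 3406 and 5181 against 146 to 956 (2.55 ± 0.22 from memory cells, adjusted p = 3.6e-07), with all 7 probe sets in that direction. Ccnd3, named after its values were seen, read 20.8, 19.4, 21.6 and 22.1 against 32.3 to 40 in germinal center cells and was lower than the mean (-1.97 ± 0.29, adjusted p = 9.18e-05), with 1 of its 3 probe sets in that direction against each subset. Of 42 genes of ribosome biogenesis 1 was higher and 1 lower (2.38% each, under the 4.07% and 4.22% of all genes). Gnl3, nucleostemin, read 2039, 2438, 1688 and 2153 against 448 to 634 (1.90 ± 0.16 from naive cells, adjusted p = 4.01e-07). Myc, which drives that program, was the lower one, with 69.5, 87.6, 58.4 and 58 against 106 to 416 (-1.12 ± 0.30 from germinal center cells, adjusted p = 0.0143). Myc lost its call without germinal center array 3 (-0.72, largest adjusted p = 0.075). The sign turned when scaled to the spiked controls (0.10, with no call).

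Genes of calcium and ion handling included channels that were higher than in each subset. Among 36 measured, 6 (16.7%, against 4.07% of all genes) were higher and 2 (5.56%, against 4.22%) lower. Cacna1h, a low-voltage calcium channel, read 500.4, 395, 509 and 573 against 14.4 to 118 (2.78 ± 0.26 from germinal center cells, adjusted p = 1.54e-06). The potassium channel Kcnk6 read 2771, 1469, 1834 and 2459.9 against 14.8 to 634 (2.19 ± 0.30 from memory cells, adjusted p = 5.02e-05). Kcnn4, a calcium-activated potassium channel, read 7898, 6407, 6529 and 10731 against 328 to 3618 (1.39 ± 0.21 from germinal center cells, adjusted p = 0.000162). Atp2a2, the calcium pump of the endoplasmic reticulum, read 7122, 6538, 8677 and 6575 against 1455 to 3313 (1.56 ± 0.18 from germinal center cells, adjusted p = 1.42e-05). With the mean of its probe sets the difference was 0.62, under the 2-fold limit. The release channel Itpr2 read 90.2, 65.4, 71.2 and 79.2 against 219 to 996 (-2.09 ± 0.23 from germinal center cells, adjusted p = 7.02e-06, -0.62 without a call when scaled to the spiked controls). Among proteases and their inhibitors 3 of 35 (8.57%, against 4.07% of all genes) were higher and 2 (5.71%, against 4.22%) lower. Slpi, a secreted inhibitor of leukocyte proteases, read 6451, 4902, 5296 and 7028 against 219.9 to 468 in germinal center cells and 23.8 to 40.4 in naive cells (4.12 ± 0.26 from germinal center cells, adjusted p = 2.71e-08).

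The actin cytoskeleton was lower in 12 of 51 measured genes (23.5%, against 4.22% of all) and higher in 4 (7.84%, against 4.07%). Of the 51, 31 were lower than the mean. When scaled to the spiked controls 4 were lower and 8 higher than each subset, against 208 lower and 4359 higher of all 18193 genes. Evl, which extends actin filaments, read 11.1, 9.02, 9.67 and 12.6, under background, against 278 to 1365 (at least 31.9-fold below germinal center cells, adjusted p = 8.84e-10), with all 4 probe sets in that direction. Actg1, gamma-actin itself and named after its values were seen, read 1506, 1832, 2401 and 1895 against 5217 to 9067 (-1.85 ± 0.19 from germinal center cells, adjusted p = 3.59e-06, -0.57 without a call under that scaling). Myo1e, a membrane myosin, read 20.2, 16.9, 17.8 and 22.2 against 104 to 156 (-2.63 ± 0.15 from germinal center cells, adjusted p = 1.02e-08). The bundling protein gene Lcp1 read 623, 643, 709 and 451 against 1496 to 4759 (-2.07 ± 0.26 from germinal center cells, adjusted p = 3.19e-05). The higher members were tubulins and others: Tubb2a read 797, 604, 665 and 569 against 19 to 238 (2.48 ± 0.40 from naive cells, adjusted p = 0.000205). Tubb6 read 87.7, 169.6, 156 and 116 against 16 to 40.6 (2.12 ± 0.24 from memory cells, adjusted p = 7.03e-06). The phospholipid-binding annexin Anxa5 read 1340.0, 1317, 1276 and 1464 against 34.7 to 405 (1.92 ± 0.24 from naive cells, adjusted p = 2.33e-05).

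Some leading lower genes lay outside these lists. Srpk3, a kinase of splicing factors, read 27.6, 25.6, 20.3 and 45.9 against 3655 to 8082 (-7.45 ± 0.26 from germinal center cells, adjusted p = 9.78e-11), the most negative difference among the 767 lower genes, with all 4 probe sets in that direction. The sorting receptor Sorl1 read 13.1, 14, 13.1 and 16.4 against 775 to 3327 (-6.29 ± 0.27 from germinal center cells, adjusted p = 6.59e-10, plasma cells above background on 3 of 4 arrays). Lrmp, a protein of the endoplasmic reticulum membrane, read 7.65, 7.11, 7.29 and 7.64, under background, against 254 to 706 (at least 20.4-fold below memory cells, adjusted p = 4.34e-12). Nxpe2 read 11.3, 9.31, 10.7 and 10.4 against 360.3 to 729.7 (at least 30.3-fold below memory cells, adjusted p = 8.12e-11), with 1 of its 2 probe sets in that direction against each subset.

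Markers of other cells were checked because the gates and a bulk sample could admit them, and in such samples fewer cells of a type and less RNA per cell cannot be told apart. Of 31 measured myeloid markers 23 lay above background on some plasma array, against 14 or 15 in each other subset, and 10 of the 31 (32.3%, against 16.6% of all genes) were higher and 1 lower than the mean. Their summed intensity was 589 to 1019 on plasma arrays and 462 to 650.0, 555 to 626 and 419 to 600.3 in naive, germinal center and memory arrays. Cd14, Itgam (CD11b), Marco, Vsig4, S100a8, S100a9, Cd163 and Xcr1 lay above background on no plasma array. Of the list Mrc1, the macrophage mannose receptor, was higher than each subset, with 161, 194, 199 and 135 against 7.78 to 12.8 (3.98 ± 0.18 from naive cells, adjusted p = 7.46e-10, these above background on 1 of 3 arrays). Slc40a1, an iron exporter of macrophages, read 211, 26.7, 14.8 and 208 against 8.06 to 28.2 (2.27 ± 0.77 from germinal center cells, adjusted p = 0.0464, these above background on 1 of 3 arrays). Slc40a1 lost its call without any 1 of naive array 1, naive array 2, naive array 3, germinal center array 1, germinal center array 2, memory array 1, memory array 2, memory array 3, memory array 4, plasma array 1 and plasma array 4 (1.70 to 2.27, largest adjusted p from 0.057 to 0.159). Lysozyme stood out on 1 array: Lyz1 read 12.4, 267, 10.3 and 12.3 and Lyz2 16.1, 93.1, 15.2 and 22.7. The part of such cells in the results above was not tested. Of 26 T and NK cell markers 1 was higher (Thy1, 38.5, 24.9, 17.7 and 42.6 against 8.62 to 13.5; at least 2.06-fold above germinal center cells, adjusted p = 0.000801) and 1 lower. Of the 26, 15 lay above background on some plasma array and 11 on none, among them Cd3g, Cd247 and Cd8b1. Their summed intensity was 439 to 496 on plasma arrays against 899 to 1211, 454 to 545 and 626 to 747 in naive, germinal center and memory arrays. Of 29 markers of red cells, platelets and stroma 0 were higher and 1, Cr2, lower, and 15 lay above background on some plasma array. Their sums were 448 to 542 against 3280.2 to 3811, 2527 to 2848 and 3451 to 4344 in naive, germinal center and memory arrays. A large part of that difference is Cr2, the B cell coreceptor CD21 whose readings are given above. These sums therefore do not measure red cells, platelets and stroma alone.

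Of 10 naive cell markers 6 were lower than each subset and all 10 lower than the mean, and Fcer2a (CD23), on which the naive cells were gated, read 13.6, 14.4, 13.3 and 12.7 against 160.1 to 1808. Of 10 germinal center markers 5 were lower than the mean and 5 were not called, and 1 (Bcl6) was lower than each subset. Their median difference was 0.43 against naive, -2.85 against germinal center and -0.12 against memory cells, and their summed intensity was 798 to 1245 against 1367 to 1919, 10303 to 12395 and 1133 to 1619.9 in the same order. Of 8 memory markers 6 were lower and 1 higher than the mean, and 1 (Itgb1) was higher than each subset. Their median difference was 0.14 against naive, -0.33 against germinal center and -3.12 against memory cells, and the sums were 319.8 to 344 against 789 to 863, 392 to 866 and 1996 to 3579.8 in that order.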

How the data were processed

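The series matrix holds the authors' deposited linear intensities, made with RMA per the submitters' processing notes; its version and the chip definition are not given in the sources used here. The authors' intensity values were taken to log2. Of 45101 probe sets 64 were controls, 34945 had 1 gene symbol from the platform annotation, 932 several and 9160 none, and 34741 were matched to RefSeq by Entrez ID. The brightest probe set by mean stood for each of 18193 genes. limma 3.58.1 (R 4.3.3; lmFit and eBayes) fitted all 14 arrays by subset with 10 residual degrees of freedom, and p-values were adjusted by Benjamini-Hochberg over all genes in each comparison. The fit was checked on simulated data. Background ranged from 10.96 to 16.1.

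The members, gene lists and tests were chosen with earlier results of these data known. Named were the 15 genes per direction with the largest difference from the nearest subset among those without overlap (secretion, immunoglobulin and placeholder genes left out), up to 4 per list and direction, markers and members against a list, and a short fixed set. Chosen after their values were seen were Actg1, Asns, B2m, Bcl11a, Bcl2l1, Blk, Calu, Ccnd3, Cd79b, Cd86, Ciita, Eaf2, Gfpt1, Gnpnat1, Gpr183, H2-Aa, H2-Ab1, H2-Oa, Hk2, Hspa5, Icam1, Igha, Irf7, Itga4, Itga6, Kcnn4, Lmo2, Lrrc59, Mzb1, Pkm, Psat1, Ptpn6, Rel, Rfx5, Slamf7, Slc2a1, Slc2a3, Slc3a2, Syk, Tnfrsf13b, Uap1 and Wfs1. Alternatives changed the normalization, probe set rule, low value filter, array weights, limits and arrays used.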

Additional observations from a re-analysis of the deposited data

Results flagged for a closer look

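Some array values stood far from the other 3 of their group by Dixon's ratio at the 95% level, which by chance marks about 1 group in 20; of 323 groups of 4 arrays tested over the genes named here, 21 were marked. Among plasma arrays, array 2 was high for Lyz1 (267) and Lyz2 (93.1) and low for Syk (1574) and Ngly1 (1101). Plasma array 3 was high for Fndc3b (2007) and low for Bcl11a (28.6), and plasma array 4 was high for Bhlha15 (1872). Among memory arrays, array 1 was low for Cd83 (1487) and Erap1 (47.4) and high for Tlr1 (2400.2). Memory array 2 was high for Cxcr3 (673) and S1pr3 (4347) and low for Lmo2 (4963). Memory array 3 was high for Itgb1 (117), Psmb8 (595) and Ptpn6 (1195). Memory array 4 was high for Jchain (489), Sdc1 (49.9), Tubb2a (63.8), Egr3 (799) and Vsig4 (14.4), and of these Jchain and Sdc1 mark plasma cells. All values are linear intensities.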

How the results depend on the processing

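Of 173 named genes with a call, 136 kept their direction at an adjusted p under 0.05 in every setting tried. No fold limit was applied here, so a kept gene may lie under 2-fold, as Atp2a2 did with the mean of its probe sets (0.62). The stricter limits on p and fold were not applied to single genes. Scaling arrays to the spiked controls, chosen after the data were seen, moved most: 14904 genes were then higher and 643 lower than the mean of the other subsets, and 4359 higher and 208 lower than each subset. In that setting the sign turned for Cd79b (0.042), Ctrl (0.038), Gpr183 (0.0048), Mcl1 (0.44), Myc (0.10), Pax5 (0.13), Ptprc (0.021) and Syk (0.36), and 16 other named genes lost their call; the controls were dimmest on plasma arrays 1 to 3, while plasma array 4 lay within the range of the other subsets. Centring arrays on bright genes, also chosen after the data were seen, lost none, and centring on the median 3. The share of calls against the mean that were higher was 40.8% with median centring and 59.3% with centring on bright genes, against 49.9%. With the mean of probe sets 447 genes were lower than each subset. A log2 difference of at least 2 left 244 higher and 231 lower genes, and no fold limit gave 1168 and 1221. Without single replicates 2554 to 3150 genes were higher and 2667 to 3177 lower than the mean, and 714 to 752 higher and 678 to 799 lower than each subset. With the replicate number as a block the counts were 2774, 2870, 725 and 722. In their deviations from the subset means, 19 pairs of same-numbered arrays correlated at -0.217 to 0.250 (median -0.01). The 54 pairs with different numbers correlated at -0.292 to 0.309 (median -0.0045). The labels do not say what the numbers share, and with 3 or 4 arrays per subset these values cannot tell. Genes under background have bounds only.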

Other observations

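Genes outside every list, chosen after their values were seen, gave further differences of plasma cells. Thbd, thrombomodulin, a receptor that turns thrombin toward anticoagulation, read 109, 142, 298 and 146 against 7.97 to 10.8 (at least 11.4-fold above germinal center cells, adjusted p = 2.9e-08). Nrp1, neuropilin, a coreceptor of semaphorins and vascular growth factors, read 180.1, 119.9, 146 and 139.8 against 7.8 to 12.4 (at least 10.2-fold above germinal center cells, adjusted p = 8.84e-10), with 3 of its 4 probe sets in that direction against each subset. Abcb1b, a drug efflux pump, read 1311, 823, 1136 and 848 against 12.3 to 89.1 (3.83 ± 0.34 from memory cells, adjusted p = 6.53e-07), with 1 of its 2 probe sets in that direction against each subset. Srm, which makes spermidine, read 2651, 2861, 2469 and 3255 against 152 to 336 (3.19 ± 0.20 from naive cells, adjusted p = 2.04e-08), and the lysosomal glucuronidase Gusb 1567, 1304, 1510.1 and 1566 against 39.4 to 156 (3.51 ± 0.34 from naive cells, adjusted p = 1.56e-06). Thbd and Nrp1 lay under background on all 10 other arrays, while Srm and Gusb lay above background on all of them.

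Among the lower genes Btla, an inhibitory receptor of lymphocytes, read 66.2, 117, 81.3 and 70.1 against 2089 to 8702 (-5.11 ± 0.23 from germinal center cells, adjusted p = 1.07e-09). Rasgrp1, which activates Ras downstream of diacylglycerol, read 23, 28.5, 28.6 and 26 against 472 to 1324 (-4.73 ± 0.19 from germinal center cells, adjusted p = 4.14e-10), with 3 of its 4 probe sets in that direction against each subset. Neither overlapped with another subset, which held for 712 of the 767 lower genes. Egr3, an early response factor, read 6.71, 6.71, 8.25 and 6.83, under background, against 589 to 1030.1 in naive, 56.7 to 799 in memory and 48.3 to 185 in germinal center cells (at least 5.72-fold below germinal center cells, adjusted p = 0.00128), with 1 of its 2 probe sets in that direction against each subset. Its call was lost when values under 16 were set to 16 (-2.30).

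Probe sets without a gene symbol were fitted in the same model with all others. Of 9160 such probe sets 79 (0.862%) were higher and 204 (2.23%) lower in plasma cells than in each other subset. Of 34945 probe sets with 1 symbol 1254 (3.59%) were higher and 1154 (3.3%) lower. Probe sets that match several genes, 932 in all, were higher in 33 and lower in 19.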
